A study of Mus musculus with 6 samples.

Results

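The expression of 8 red cell genes was followed across 6 Affymetrix arrays of mouse marrow cells: the carbonic anhydrases Car1 and Car2, the water channel Aqp1, the Rh-associated glycoprotein Rhag, the anion exchanger Slc4a1, the transferrin receptor Tfrc, and the surface proteins Ermap and Cldn13. They were taken by gene symbol as the genes of the red cell membrane and its carbonic anhydrases, and make 8 of the 18193 genes that a probe set named alone. All 12 of their single-gene probe sets were read, out of 34945 of that kind, and none was filtered out for a low value. Expression had been measured in 3 groups of 2 arrays. The MN1VP16 and MN1 groups were GFP-positive cells from mouse bone marrow, carrying the gammaretroviral vector pSF91-MN1VP16-IRES-GFP or pSF91-MN1-IRES-GFP. MN1 is a transcriptional cofactor that is overexpressed in some myeloid leukaemias, and VP16 is the name of a viral transcription activator. The construct is described no further in the labels. The Gr1Mac group was marrow sorted for Gr1 and CD11b, which mark granulocytes and monocytes. Per the labels, the donor marrow in all 3 groups was from C57BL/6J mice given 5-fluorouracil at 150 mg/kg for 4 days, and it was held for 48 hours with human IL6, mouse IL3 and mouse SCF. Transduced cells went into lethally irradiated syngeneic recipients, and cells were sorted 4 weeks later. The labels do not say whether Gr1Mac cells were taken from transplanted mice, whether animals were pooled, or whether 2 arrays of 1 group stand for different mice. The p-values therefore reflect array-to-array spread alone, possibly of technical origin, and the number of arrays limits the precision.

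Red cell precursors build a membrane and a set of enzymes suited to gas transport while they make haemoglobin. Carbonic anhydrases interconvert carbon dioxide and bicarbonate, the anion exchanger carries bicarbonate out in exchange for chloride, and the Rh-associated glycoprotein and the water channel pass small neutral molecules. The transferrin receptor takes up the iron that haem needs and is also high on other dividing cells. Several of these genes, Car1 and Car2 among them, are switched on in progenitors well before haemoglobin accumulates.

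On the brightest probe set of each, all 8 genes read highest on MN1 arrays, lower on MN1VP16 arrays and lowest on Gr1Mac arrays. No groups overlapped for these probe sets. Of all genes, 14.1% showed that order without overlap, 30.9% had both MN1 arrays above both Gr1Mac arrays, 24.8% both MN1VP16 arrays above both Gr1Mac arrays, and 29.2% both MN1VP16 arrays below both MN1 arrays. All values are log2 expression per probe set as deposited (RMA, which subtracts background and quantile-normalises the arrays), and all adjusted p-values are limma's, adjusted over 18193 genes by the Benjamini-Hochberg method. Calls were made below an adjusted p of 0.05. MN1 exceeded Gr1Mac for 8 of 8 genes, where 17.3% of all genes were called higher and 12.0% lower. MN1VP16 exceeded Gr1Mac for 6 of 8, where 3.66% of all genes were called higher and 2.11% lower. MN1VP16 was below MN1 for 5 of 8, where 2.70% of all genes were called lower and 1.15% higher. The 8 genes were chosen with earlier results of these data known. The shares over all genes are therefore a background to these counts and not a test of them. The median log2 difference over the 8 genes was 5.38 for MN1 minus Gr1Mac, against -0.06 over all genes. It was 2.48 for MN1VP16 minus Gr1Mac, against 0.00 over all genes, and -2.87 for MN1VP16 minus MN1, against 0.03. The first 2 comparisons share the Gr1Mac arrays, and both contrasts of MN1 share its arrays. With 2 arrays against 2, an exact permutation test of a single gene cannot give a p below 0.333. In a sorted but mixed population, more cells of a type and more RNA per cell cannot be told apart.

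**Figure D1:**
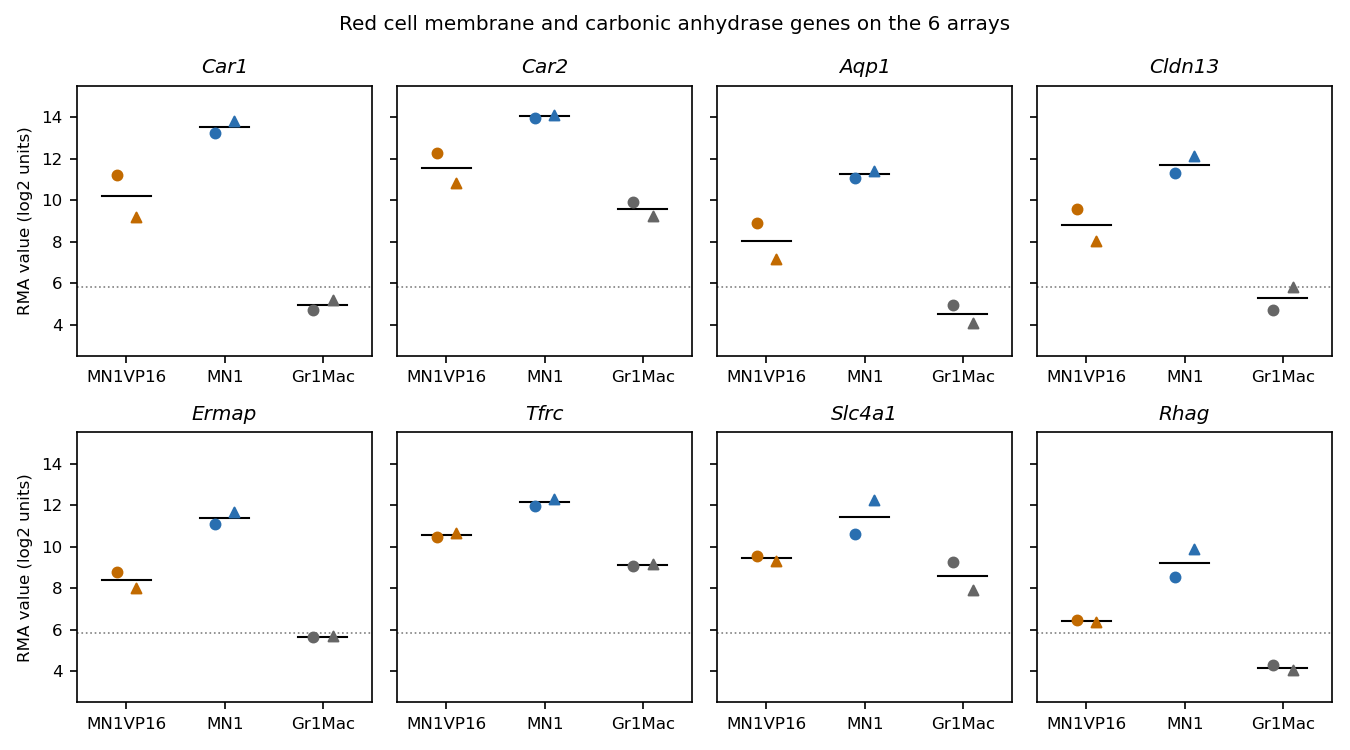
The 8 genes on each array, in log2 RMA units, with MN1VP16, MN1 and Gr1Mac from left to right in each panel. Circles are array 1, triangles array 2, bars the mean of 2 arrays, and the dotted line a guide to the dim end of the scale at 5.84. In every panel both MN1 arrays lie above both MN1VP16 arrays, and these above both Gr1Mac arrays.

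The arrays differed in other ways that touch these comparisons. Xist was high on both MN1 arrays and on Gr1Mac array 1 (10.44 to 12.59), while the Y-linked genes Kdm5d and Eif2s3y were high on both MN1VP16 arrays and on Gr1Mac array 2. Uty, also Y-linked, read 5.36 and 5.22 on the MN1VP16 arrays and 5.08 on Gr1Mac array 2. On the Xist-high arrays these Y-linked genes read at most 4.05. The MN1VP16 and MN1 groups thus differ in this sex pattern throughout, and the construct and the sex of the source cells can be separated only through the Gr1Mac arrays. The highest Xist reading on a Y-high array, 5.84, serves below as a guide to the level of a dim probe set and was chosen after the values were seen. Uty lay under it on all arrays, so a reading under the guide level need not mean that a transcript is absent. Where the dimmer group averaged at or under it, a called fold is given as a lower bound, the brighter mean over the mean of the higher of 5.84 and each dim array's own reading. The 30 bright control features averaged 12.54 and 11.34 on the MN1VP16 arrays, 12.40 and 12.13 on the MN1 arrays, and 11.76 and 11.84 on the Gr1Mac arrays. They set MN1VP16 array 2 beside the Gr1Mac arrays and MN1VP16 array 1 beside the MN1 arrays. The correlation between arrays lay between 0.89 and 0.99 over all 45037 ordinary probe sets, including those that name several genes or none.

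Car1, a cytosolic carbonic anhydrase that is abundant in red cells, read 11.20 and 9.20 on the MN1VP16 arrays, 13.24 and 13.82 on the MN1 arrays, and 4.73 and 5.18 on the Gr1Mac arrays. Both Gr1Mac readings were under the guide level, and the MN1VP16 arrays lay far apart. In MN1 cells Car1 was at least 207-fold higher than in Gr1Mac cells (log2 difference 8.58 ± 0.63 SE, adjusted p = 0.00119). MN1VP16 cells held at least 20.6-fold more than Gr1Mac cells (5.24 ± 0.63 SE, adjusted p = 0.0175). Against MN1 cells they were 10.1-fold lower (-3.33 ± 0.63 SE, adjusted p = 0.0491). The call of MN1VP16 over Gr1Mac ended without Gr1Mac array 1 or array 2, with adjusted p-values of 0.0518 and 0.0823. That of MN1VP16 under MN1 ended when any array other than MN1VP16 array 1 was left out, with adjusted p-values from 0.055 to 0.284.

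Car2, the fast-turnover cytosolic carbonic anhydrase, is also used by osteoclasts and other cells. It read 12.26 and 10.81 on the MN1VP16 arrays, 13.97 and 14.12 on the MN1 arrays, and 9.89 and 9.22 on the Gr1Mac arrays. Unlike Car1, it stood well above the guide level in Gr1Mac cells. MN1 cells had 22.5-fold more Car2 RNA than Gr1Mac cells (log2 difference 4.49 ± 0.49 SE, 95% interval 3.30 to 5.68, adjusted p = 0.00231). Neither difference involving MN1VP16 was called. MN1VP16 minus Gr1Mac was 1.98 (95% interval 0.80 to 3.17, adjusted p = 0.0718), and MN1VP16 minus MN1 was -2.51 (95% interval -3.69 to -1.32, adjusted p = 0.0519). Without MN1VP16 array 2 the first of these was called (2.71, adjusted p = 0.0276), and without MN1VP16 array 1 the second was (-3.24, adjusted p = 0.0129).

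In RefSeq's gene order Car1 and Car2 lie in a run of 4 neighbouring carbonic anhydrase genes, Car13, Car1, Car3 and Car2. Car3, best known from muscle, fat and liver, read 8.01 and 6.72 on the MN1VP16 arrays, 10.28 and 10.55 on the MN1 arrays, and 3.95 and 4.34 on the Gr1Mac arrays. It was called in all 3 comparisons: at least 2.89-fold higher in MN1VP16 cells than in Gr1Mac cells (adjusted p = 0.0204), at least 24.0-fold higher in MN1 cells than in Gr1Mac cells (adjusted p = 0.00107), and 8.30-fold lower in MN1VP16 cells than in MN1 cells (adjusted p = 0.0284). Car13, a cytosolic family member, read 6.54 and 5.53 on the MN1VP16 arrays, 7.14 and 8.26 on the MN1 arrays, and 5.36 and 4.97 on the Gr1Mac arrays. Its higher level in MN1 than in Gr1Mac cells was called (at least 3.64-fold, adjusted p = 0.0107), and the other differences were not (MN1VP16 minus Gr1Mac 0.87, adjusted p = 0.337, and MN1VP16 minus MN1 -1.66, adjusted p = 0.111). Of the 14 other measured carbonic anhydrase genes, 8 were under the guide level on all arrays. Over all genes 3.66% were called higher in MN1VP16 than in Gr1Mac cells, and 2.70% lower in MN1VP16 than in MN1 cells. In MN1 cells over Gr1Mac cells 4 of the 14 rose and 0 fell (17.3% of all genes rose): Car3, Car13, Car8 and Car9. Car8, a family member without catalytic activity, was at least 2.63-fold higher (adjusted p = 0.00543), and Car9, a hypoxia-responsive membrane enzyme, had a log2 difference of 1.09 (adjusted p = 0.0186). The median over the 14 was -0.14, against -0.06 over all genes. The count of 4 fell to 2 without MN1 array 2 or without Gr1Mac array 2. In MN1VP16 cells over Gr1Mac cells, Car3 and Car9 were called (Car9 1.20, adjusted p = 0.0459), and this count of 2 dropped to 1 without any 1 of the other arrays and to 0 without Gr1Mac array 2. The call of Car3 in MN1VP16 against MN1 was lost without either MN1 array or either Gr1Mac array, and 2 genes were called without MN1VP16 array 1.

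**Figure D2:**
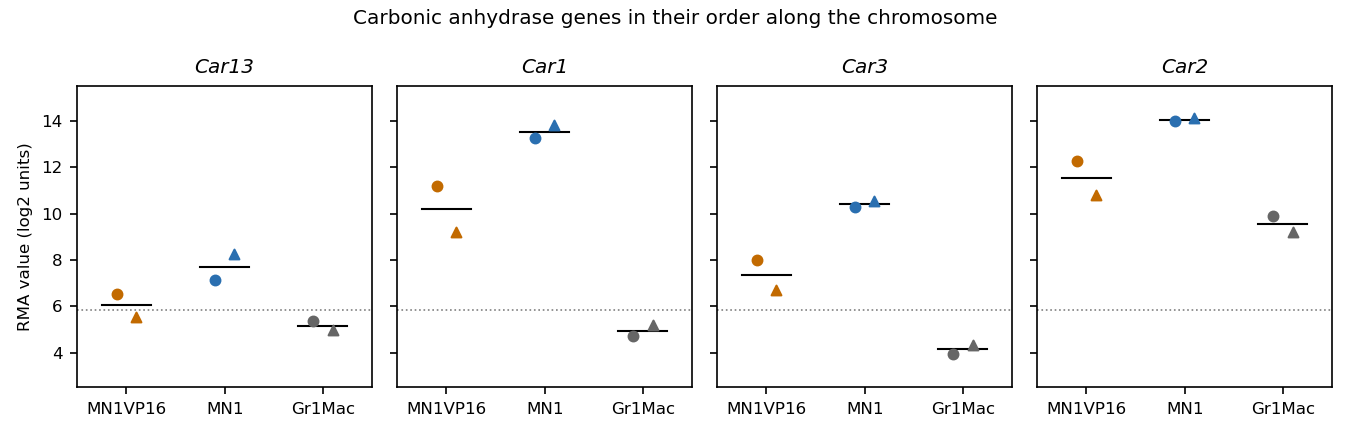
Car13, Car1, Car3 and Car2, in their order along the chromosome, on each array in log2 RMA units. Colours, symbols, bars and the dotted line at 5.84 are as for the 8 genes. All 4 were highest on the MN1 arrays, and only Car2 read above the dotted line on the Gr1Mac arrays.

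Aqp1, the red cell water channel that carries the Colton blood group in humans, read 8.90 and 7.18 on the MN1VP16 arrays, 11.09 and 11.38 on the MN1 arrays, and 4.98 and 4.07 on the Gr1Mac arrays. The MN1 arrays lay close together, and the Gr1Mac arrays were both under the guide level. MN1 cells were at least 42.3-fold above Gr1Mac cells (log2 difference 6.72 ± 0.58 SE, adjusted p = 0.00145). MN1VP16 cells were at least 4.61-fold above Gr1Mac cells (3.52 ± 0.58 SE, adjusted p = 0.0311) and 9.18-fold below MN1 cells (-3.20 ± 0.58 SE, adjusted p = 0.0464). Without any 1 of the MN1 or Gr1Mac arrays the call of MN1VP16 over Gr1Mac was lost (adjusted p between 0.0575 and 0.124). Leaving out any array but MN1VP16 array 1 likewise ended the call of MN1VP16 under MN1 (adjusted p between 0.0711 and 0.265). None of the 11 other measured aquaporin genes was called in any of the 3 comparisons by limma, and 8 of them were under the guide level on all arrays. Over all genes 17.3% were called higher and 12.0% lower in MN1 minus Gr1Mac, and 3.66% or fewer in each direction in the other 2 comparisons. In each comparison 1 of the 11 had an unadjusted p under 0.05. With the mean of a gene's probe sets, or without the probe sets marked as less specific, 1 was called higher in MN1 than in Gr1Mac cells. Without Gr1Mac array 2, 1 aquaporin was called higher in MN1 than in Gr1Mac cells. Without MN1VP16 array 1, 1 was called lower in MN1VP16 than in Gr1Mac cells and 1 lower in MN1VP16 than in MN1 cells.

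Rhag, the Rh-associated glycoprotein that partners the Rh antigens and conducts ammonia, read 6.45 and 6.35 on the MN1VP16 arrays, 8.55 and 9.91 on the MN1 arrays, and 4.29 and 4.07 on the Gr1Mac arrays. MN1VP16 values were close together and not far above the guide level, and the MN1 arrays spread over more than 1 log2 unit. MN1 cells exceeded Gr1Mac cells at least 10.5-fold (log2 difference 5.05 ± 0.42 SE, adjusted p = 0.0014). MN1VP16 cells exceeded Gr1Mac cells at least 1.48-fold (2.22 ± 0.42 SE, adjusted p = 0.0415) and were 7.10-fold under MN1 cells (-2.83 ± 0.42 SE, adjusted p = 0.0314). The first of the MN1VP16 calls ended without either MN1VP16 array or either Gr1Mac array (adjusted p between 0.102 and 0.15). The second ended without any array except MN1 array 1 (adjusted p between 0.0638 and 0.0949). Rhd, which encodes the Rh antigen protein held in the membrane with Rhag, was the only called gene among 12 other measured genes with Slc4 or Rh names. These count Slc4a1ap, an adaptor gene that belongs to neither family. Rhd read 8.68 and 7.72 on the MN1VP16 arrays, 10.63 and 11.27 on the MN1 arrays, and 6.28 and 5.76 on the Gr1Mac arrays. Its log2 differences were 4.93 for MN1 minus Gr1Mac (adjusted p = 0.00133), 2.18 for MN1VP16 minus Gr1Mac (adjusted p = 0.0368) and -2.75 for MN1VP16 minus MN1 (adjusted p = 0.0286). Leaving out any array but MN1VP16 array 2 ended the call of Rhd in MN1VP16 over Gr1Mac, and leaving out MN1 array 2, MN1VP16 array 2 or either Gr1Mac array ended that in MN1VP16 under MN1.

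Slc4a1, the anion exchanger known as band 3 and an anchor of the membrane skeleton, had the widest spread between the MN1 arrays and between the Gr1Mac arrays. Its brightest probe set, 1434502_x_at, read 9.57 and 9.32 on the MN1VP16 arrays, 10.63 and 12.23 on the MN1 arrays, and 9.26 and 7.92 on the Gr1Mac arrays. The lower MN1VP16 array was 9.32 and the higher Gr1Mac array 9.26, so those groups were barely apart. MN1 cells were 7.14-fold above Gr1Mac cells (log2 difference 2.84 ± 0.62 SE, 95% interval 1.32 to 4.36, adjusted p = 0.0187). Without MN1 array 2 the adjusted p was 0.0804, and without Gr1Mac array 2 it was 0.0976. The other differences were not called. MN1VP16 minus Gr1Mac was 0.85 (95% interval -0.67 to 2.37, adjusted p = 0.488), and MN1VP16 minus MN1 was -1.98 (95% interval -3.50 to -0.46, adjusted p = 0.133). Probe set names ending in _x_at mark probes that may match other transcripts. A second probe set without that mark, 1416464_at, read 9.67 and 9.24 on the MN1VP16 arrays, 10.23 and 11.80 on the MN1 arrays, and 9.24 and 8.09 on the Gr1Mac arrays. On it MN1VP16 array 2 (9.237) lay just under Gr1Mac array 1 (9.244), so those groups overlapped. Its MN1 minus Gr1Mac difference was 2.35 (adjusted p = 0.0296 in limma's fit over all probe sets). The third, 1431743_a_at, lay between 3.92 and 4.13 on all 6 arrays.

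Tfrc, which brings transferrin-bound iron into the cell, had the smallest standard error of the 8 genes. Its brightest probe set, 1452661_at, read 10.46 and 10.64 on the MN1VP16 arrays, 11.98 and 12.29 on the MN1 arrays, and 9.09 and 9.14 on the Gr1Mac arrays. Gr1Mac cells thus held Tfrc RNA well above the guide level, and each group lay clear of the others. MN1 cells were 8.09-fold above Gr1Mac cells (log2 difference 3.02 ± 0.18 SE, adjusted p = 0.00098). MN1VP16 cells were 2.71-fold above Gr1Mac cells (1.44 ± 0.18 SE, adjusted p = 0.0189) and 2.99-fold below MN1 cells (-1.58 ± 0.18 SE, adjusted p = 0.0199). The call over Gr1Mac was lost without MN1VP16 array 2 (adjusted p = 0.0647) or Gr1Mac array 2 (adjusted p = 0.0721). That under MN1 was lost without MN1 array 2 (adjusted p = 0.151) or MN1VP16 array 2 (adjusted p = 0.0522). Probe set 1422966_a_at read 6.22 and 6.38 on the MN1VP16 arrays, 7.09 and 7.85 on the MN1 arrays, and 5.19 and 6.03 on the Gr1Mac arrays. Probe set 1422967_a_at stayed between 3.68 and 4.49 on all arrays. In the fit over all probe sets, both were called higher in MN1 than in Gr1Mac cells (adjusted p = 0.012 and 0.0275), where 15.0% of probe sets were, and neither passed in the other comparisons.

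**Figure D3:**
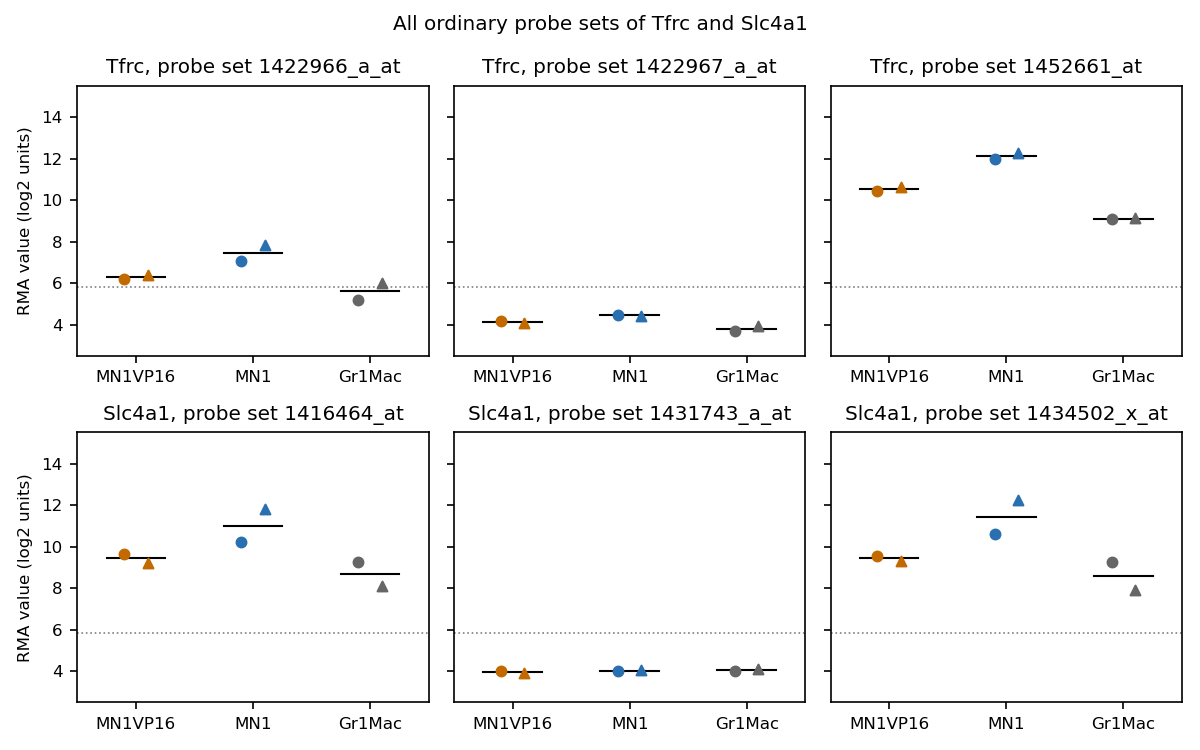
All ordinary probe sets of Tfrc (top row) and Slc4a1 (bottom row) on each array, in log2 RMA units, with symbols as for the 8 genes. For each gene 1 probe set stayed dim on all 6 arrays, and the others were highest on the MN1 arrays.

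Ermap, an immunoglobulin-type membrane protein of erythroid cells that carries the Scianna blood group in humans, read 8.76 and 8.03 on the MN1VP16 arrays, 11.08 and 11.66 on the MN1 arrays, and 5.63 and 5.70 on the Gr1Mac arrays. The Gr1Mac arrays lay just under the guide level and close together. MN1 cells were at least 46.3-fold above Gr1Mac cells (log2 difference 5.71 ± 0.31 SE, adjusted p = 0.000967). MN1VP16 cells were at least 5.90-fold above Gr1Mac cells (2.73 ± 0.31 SE, adjusted p = 0.0153) and 7.85-fold below MN1 cells (-2.97 ± 0.31 SE, adjusted p = 0.0175). The first of these MN1VP16 calls was lost without Gr1Mac array 2 (adjusted p = 0.0786) and the second without MN1 array 2 (adjusted p = 0.121).

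Cldn13, a claudin that mice have and humans lack, belongs to a family of tight-junction proteins. It read 9.59 and 8.03 on the MN1VP16 arrays, 11.30 and 12.13 on the MN1 arrays, and 4.73 and 5.80 on the Gr1Mac arrays. Both Gr1Mac arrays were under the guide level, and the groups did not overlap. MN1 cells were at least 58.9-fold above Gr1Mac cells (log2 difference 6.45 ± 0.61 SE, adjusted p = 0.00176), and MN1VP16 cells at least 7.86-fold above them (3.54 ± 0.61 SE, adjusted p = 0.0334). The difference between MN1VP16 and MN1 cells was not called (-2.91, 95% interval -4.41 to -1.41, adjusted p = 0.0594). The call of MN1VP16 over Gr1Mac ended without any array except MN1VP16 array 2 (adjusted p between 0.0633 and 0.101), and without MN1VP16 array 1 the difference from MN1 was called (-3.69, adjusted p = 0.0359). Among the 19 other measured claudins, none rose in MN1 cells over Gr1Mac cells, where 17.3% of all genes rose. In that comparison 1 claudin fell, Cldn15 (log2 difference -1.71, adjusted p = 0.0141), where 12.0% of all genes fell. That call was lost without MN1 array 2, and without either MN1VP16 array 2 claudins were called lower and 1 higher. By limma none of the 19 was called in MN1VP16 against Gr1Mac, where 1 had an unadjusted p under 0.05, or in MN1VP16 against MN1, where 5 had. Without MN1VP16 array 1, 1 was called lower in the comparison with Gr1Mac and 2 in that with MN1. Of the 19, 14 were under the guide level on all arrays.

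RefSeq's promoter windows for GRCm38.p6, 250 bases before to 50 after a gene's start, held 4 of the 8 genes in 5 windows. The 250 bases before the start are shown for Aqp1, Ermap and Rhag, membrane genes that have 1 window each and were called in all 3 comparisons, with CACCC and TGATAA on either strand in capitals (GGGTG and TTATCA when read from the other strand). The Aqp1 bases are chr6:55336049-55336298 on the plus strand, the Ermap bases chr4:119189996-119190245 on the minus strand, and the Rhag bases chr17:40810899-40811148 on the plus strand.
Aqp1: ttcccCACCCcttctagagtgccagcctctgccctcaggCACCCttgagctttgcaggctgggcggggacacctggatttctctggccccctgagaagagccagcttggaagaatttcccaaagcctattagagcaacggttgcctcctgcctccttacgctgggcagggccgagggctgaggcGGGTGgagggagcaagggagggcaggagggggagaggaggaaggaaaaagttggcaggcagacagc
Ermap: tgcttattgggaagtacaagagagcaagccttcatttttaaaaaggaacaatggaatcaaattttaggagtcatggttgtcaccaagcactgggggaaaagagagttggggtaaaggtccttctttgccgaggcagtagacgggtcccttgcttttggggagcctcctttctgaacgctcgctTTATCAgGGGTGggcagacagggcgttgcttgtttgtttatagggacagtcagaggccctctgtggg
Rhag: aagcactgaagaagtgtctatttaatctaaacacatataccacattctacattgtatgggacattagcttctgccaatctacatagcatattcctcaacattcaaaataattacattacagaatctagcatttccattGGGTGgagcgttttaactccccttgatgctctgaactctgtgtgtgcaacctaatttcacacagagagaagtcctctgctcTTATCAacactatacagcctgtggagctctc
CACCC is the core of sites bound by Krüppel-like factors such as Klf1, and TGATAA and AGATAA contain the GATA core. CACCC occurred in 5 of 5 windows, against 57.5% of all 32851 windows. The 2 Tfrc windows share the bases chr16:32608872-32608945, so the 5 windows are not separate stretches. TGATAA, which was added after the sequences were seen, occurred in the Ermap and Rhag windows, against 9.05% of all windows. AGATAA occurred in 0 of 5 windows, against 11.2% of all. The E-box letters CANNTG occurred in the Aqp1 window and in 1 of 2 Tfrc windows, against 72.3% of all. These motifs do not share bases with each other in the printed stretches. A match is a run of letters and was not measured as a bound site.

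The counts of calls moved with the arrays in the fit. Without 1 array at a time, MN1 exceeded Gr1Mac for 7 or 8 of the 8 genes. MN1VP16 exceeded Gr1Mac for 0 genes without Gr1Mac array 2, for 2 without Gr1Mac array 1 and for 4 or 5 without any of the others. MN1VP16 was below MN1 for 0 genes without MN1 array 2, 1 without MN1VP16 array 2, 2 without either Gr1Mac array, 3 without MN1 array 1 and 6 without MN1VP16 array 1. With the sex pattern as a block the counts in these comparisons were 7, 2 and 0, and with the control feature split as a block 7, 4 and 1. No array set of 1 sex pattern holds both MN1VP16 and MN1. The sets named next are the same arrays as in some of the fits without 1 array. Within the Xist-high arrays, MN1 minus Gr1Mac lay between 2.17 and 8.80 for the 8 genes, and 7 were called. Within the Y-high arrays, MN1VP16 minus Gr1Mac lay between 1.41 and 5.02, and 2 were called. Within the arrays of high control features, MN1VP16 minus MN1 lay between -2.78 and -1.67 with 1 call, and within those of low control features MN1VP16 minus Gr1Mac lay between 0.73 and 4.25 with 4 calls. No set of 1 control feature level holds both MN1 and Gr1Mac.

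The extent to which MN1VP16 cells stood between Gr1Mac cells (0%) and MN1 cells (100%) on the log2 scale differed from gene to gene. It was 61.1% for Car1, 54.9% for Cldn13 and 52.4% for Aqp1. Ermap at 47.9% and Tfrc at 47.6% lay near the middle. Car2 stood at 44.1%, Rhag at 44.0% and Slc4a1 at 30.1%. The median of 47.8% lay within the quartiles, 36.0% and 65.6%, of all genes called higher in MN1 cells, whose median was 52.2%. Where Gr1Mac readings are near the bottom of the scale, RMA compresses differences, which can move this position.

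**Figure D4:**
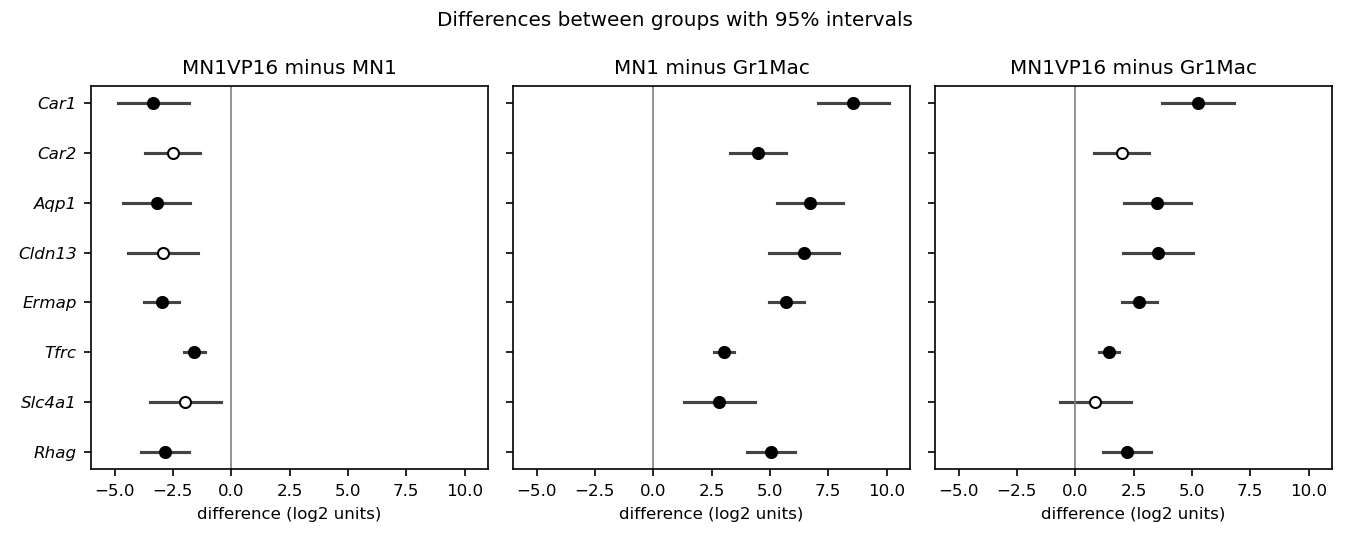
Log2 differences of the 8 genes in MN1VP16 minus MN1, MN1 minus Gr1Mac and MN1VP16 minus Gr1Mac (panels from left to right), with limma's 95% intervals as lines. Filled points were called at an adjusted p under 0.05 and open points were not. All 8 differences lay above 0 in both comparisons with Gr1Mac and below 0 in MN1VP16 minus MN1.

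The 8 genes also differed between arrays of the same group. MN1 array 2 read above MN1 array 1 for 8 of 8 genes, with a median difference of 0.59. Of all genes, 49.3% were lower on MN1 array 2, and their median difference was 0.00. MN1VP16 array 2 read below MN1VP16 array 1 for 7 of 8 genes, all but Tfrc, with a median difference of -1.09. Of all genes, 52.0% were lower on that array, with a median of -0.01. The array 2 minus array 1 differences in MN1VP16 were -2.00 for Car1, -1.72 for Aqp1, -1.57 for Cldn13 and -1.46 for Car2, all beyond the 95th percentile of the absolute difference over all genes, 0.996. They were -0.73 for Ermap, -0.25 for Slc4a1, -0.10 for Rhag and 0.18 for Tfrc. The Gr1Mac arrays split evenly, with 4 genes higher and 4 lower on array 2, where 53.6% of all genes were lower. The 10 neutrophil markers averaged 13.83 and 13.93 on the MN1VP16 arrays, 13.50 and 12.44 on the MN1 arrays, and 14.27 and 14.15 on the Gr1Mac arrays, so the MN1 array with the higher readings of the 8 genes had the lower neutrophil level. The bright control features averaged 12.54 and 11.34 on the MN1VP16 arrays, 12.40 and 12.13 on the MN1 arrays, and 11.76 and 11.84 on the Gr1Mac arrays. The part of the neutrophil level or of the control feature level in these differences was not tested.

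The genes whose centred log2 profiles came nearest over the 6 arrays, by root mean square distance, differed between the 8. For Car1 they were F2r, Ddx4 and Clca3a1 at 0.403 to 0.629, with Pearson's r from 0.990 to 0.995. For Car2 they were Mllt3, Tsc22d1 and Tmem64 at 0.176 to 0.238. Aqp1 was nearest to Mfsd2b, Ms4a2 and Car3 (0.407 to 0.433), and Cldn13 to Car3, Sphk1 and Klf1 (0.298 to 0.352). Ermap was nearest to Calml4, Klf1 and Bag2 (0.237 to 0.287), and Rhag to Bag2, Gstm5 and Hemgn (0.288 to 0.316). Tfrc had the closest profiles, those of Zfp266, Zik1 and Elp4 (0.0965 to 0.114). Slc4a1 was nearest to Slc19a2, Dyrk3 and P2ry14 (0.282 to 0.314), with r from 0.973 to 0.984. Within the 8, Ermap and Rhag were the closest pair, at 0.411. These figures describe 6 arrays in 3 groups, which set most of each profile.

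Genes of the red cell surface beyond the 8 were read in the same way. Of 24 further measured surface and transport genes, 15 were higher and 1 lower (Cd44) in MN1 than in Gr1Mac cells, with a median log2 difference of 1.81, against -0.06 over all genes. The shares over all genes were 17.3% higher and 12.0% lower. Slc14a1, the urea transporter that carries the Kidd blood group in humans, read 6.68 and 5.05 on the MN1VP16 arrays, 9.09 and 9.58 on the MN1 arrays, and 3.98 and 3.65 on the Gr1Mac arrays. It was at least 11.3-fold higher in MN1 than in Gr1Mac cells (adjusted p = 0.00172) and 11.1-fold lower in MN1VP16 than in MN1 cells (adjusted p = 0.0313). Slc16a1, a lactate transporter, was at least 31.0-fold higher in MN1 than in Gr1Mac cells (adjusted p = 0.00117). In MN1VP16 against Gr1Mac cells 3 of the 24 rose and 0 fell, where 3.66% of all genes rose: Slc16a1 at least 9.75-fold (adjusted p = 0.014), the adhesion protein Icam4 at least 1.59-fold (adjusted p = 0.0443), and the potassium channel Kcnn4 by a log2 difference of 2.22 (adjusted p = 0.0224). In MN1VP16 against MN1 cells 6 fell and 0 rose, where 2.70% of all genes fell, with a median of -1.15, among them Slc14a1 and Tspo2, an erythroid protein of the translocator family (-2.97, adjusted p = 0.0458). The count of 1 lower was lost without MN1 array 2 or either Gr1Mac array. The count of 3 was 1 without MN1VP16 array 1 and 0 without Gr1Mac array 2. The count of 6 was 0 without MN1 array 2, 2 without MN1VP16 array 2, and 3 without MN1 array 1 or either Gr1Mac array.

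Genes of the membrane skeleton beneath these proteins were called in both directions. Of 12 measured, 5 were higher (Epb42, Ank1, Tpm1, Sptb and Tmod1) and 3 lower (Add3, Tpm3 and Actb) in MN1 than in Gr1Mac cells, with a median log2 difference of 0.05. Over all genes 17.3% were higher and 12.0% lower. Epb42, which links band 3 to ankyrin, was at least 2.43-fold higher (adjusted p = 0.0307), and the adducin gene Add3 was lower (-1.93, adjusted p = 0.013). By limma none of the 12 was called in MN1VP16 against Gr1Mac cells, where 2 had an unadjusted p under 0.05 and 1 was called lower without MN1VP16 array 1. In MN1VP16 against MN1 cells 2 fell, Tmod1 (-1.42, adjusted p = 0.0421) and Ank1, the ankyrin that holds band 3 (-1.41, adjusted p = 0.04996). Over all genes 2.70% fell there. The count of 5 was 1 or 2 without either MN1 array or either Gr1Mac array, and that of 3 was 1 without MN1 array 1 or Gr1Mac array 2 and 0 without MN1 array 2. The count of 2 was 0 without MN1 array 2, MN1VP16 array 2 or either Gr1Mac array.

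Among 16 measured iron genes other than Tfrc, 5 were higher (Tfr2, Slc11a2, Slc48a1, Aco1 and Pcbp1) and 2 lower (Fbxl5 and Hfe) in MN1 than in Gr1Mac cells, with a median log2 difference of 0.34. Over all genes 17.3% were called higher there and 12.0% lower, so the 2 of 16 called lower are near the share over all genes. Tfr2, the second transferrin receptor, read 7.95 and 7.32 on the MN1VP16 arrays, 10.18 and 10.86 on the MN1 arrays, and 5.98 and 6.20 on the Gr1Mac arrays. Its log2 difference was 4.43 for MN1 minus Gr1Mac (adjusted p = 0.00116), 1.55 for MN1VP16 minus Gr1Mac (adjusted p = 0.0458) and -2.88 for MN1VP16 minus MN1 (adjusted p = 0.0176). Slc11a2, the iron importer of the endosome, was 3.03 higher in MN1 than in Gr1Mac cells (adjusted p = 0.00332) and fell by 2.29 in MN1VP16 against MN1 cells (adjusted p = 0.0384). The iron exporter Slc40a1 was lower in MN1VP16 than in Gr1Mac cells (-2.82, adjusted p = 0.0276), the 1 gene that fell there beside Tfr2 as the 1 that rose. Over all genes 3.66% rose and 2.11% fell in that comparison. Hfe, which binds transferrin receptors, was higher in MN1VP16 than in MN1 cells (2.04, adjusted p = 0.0476), where Tfr2 and Slc11a2 were the 2 that fell. In MN1VP16 against MN1, 1.15% of all genes rose and 2.70% fell. The counts of 5 and 2 were as low as 2 and 0 without MN1 array 2. Without MN1 array 1, the 5 were 3 and the 2 were 0, and without Gr1Mac array 2 they were 2 and 1. Without Gr1Mac array 1 the 2 were 1. In MN1VP16 against Gr1Mac the rise of Tfr2 was lost without any 1 array, and the fall of Slc40a1 without either MN1 array or Gr1Mac array 2. In MN1VP16 against MN1 the rise of Hfe was lost without any 1 array, and the 2 that fell were 0 without MN1 array 2 and 1 without any other array but MN1VP16 array 1.

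Of 17 measured regulators of red cell genes and globin genes, 9 were higher and 2 lower (Hba-a2 and Nfe2) in MN1 than in Gr1Mac cells, where 17.3% and 12.0% of all genes were, with a median log2 difference of 1.17. In MN1VP16 against Gr1Mac cells 4 were higher (Klf1, Hemgn, Zfpm1 and Lmo2) and 1 lower (Nfe2), where 3.66% and 2.11% of all genes were. In MN1VP16 against MN1 cells 0 were higher and 6 lower, with a median of -1.07, where 1.15% of all genes were higher and 2.70% lower. Klf1, the erythroid Krüppel-like factor, read 9.68 and 8.46 on the MN1VP16 arrays, 12.11 and 12.44 on the MN1 arrays, and 5.90 and 6.53 on the Gr1Mac arrays. Its log2 difference was 6.06 for MN1 minus Gr1Mac (adjusted p = 0.00117), 2.86 for MN1VP16 minus Gr1Mac (adjusted p = 0.0262) and -3.20 for MN1VP16 minus MN1 (adjusted p = 0.0279). Tal1, a haematopoietic factor, was 5.48 higher in MN1 than in Gr1Mac cells (adjusted p = 0.00211), and Hemgn, an erythroid nuclear protein, 2.26 higher in MN1VP16 than in Gr1Mac cells (adjusted p = 0.027). Gata1, which directs erythroid differentiation, fell by 3.09 in MN1VP16 against MN1 cells (adjusted p = 0.0354). Another 3 genes, Hba-a2, Alas2 and Hbb-b2, were singled out after their values were seen. The alpha-globin gene Hba-a2 read 8.98 and 8.65 on the MN1VP16 arrays, 8.69 and 8.10 on the MN1 arrays, and 9.79 and 9.53 on the Gr1Mac arrays, and was lower in MN1 than in Gr1Mac cells (-1.27, adjusted p = 0.0136). Alas2, the erythroid enzyme that starts haem synthesis, read 8.85 and 7.87 on the MN1VP16 arrays, 9.11 and 10.39 on the MN1 arrays, and 10.98 and 9.72 on the Gr1Mac arrays, and was called in no comparison (adjusted p from 0.116 to 0.527). Hbb-b2, an adult beta-globin gene, read 8.54 and 7.92 on the MN1VP16 arrays, 8.68 and 8.42 on the MN1 arrays, and 6.98 and 7.86 on the Gr1Mac arrays, and MN1 minus Gr1Mac was 1.13 (adjusted p = 0.057). Without MN1 array 2 the count of 2 lower in MN1 cells and that of 6 lower in MN1VP16 cells were both 0. Without Gr1Mac array 1 the 2 were 1. The 6 were 3 without MN1 array 1 and 2 without MN1VP16 array 2 or either Gr1Mac array. The count of 4 was 0 without Gr1Mac array 2 and 1 without any other array except MN1VP16 array 2, and the call of Nfe2 was lost without any 1 array.

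**Figure D5:**
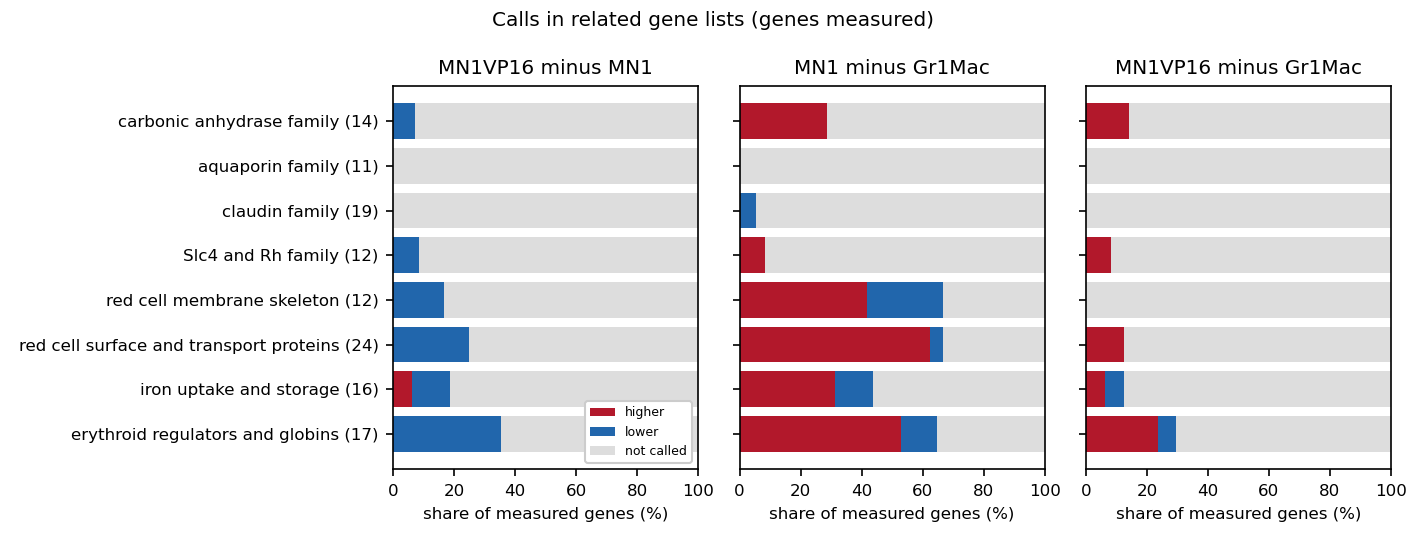
The share of measured genes called higher (red), called lower (blue) and not called (grey) in 8 related gene lists, in percent, for MN1VP16 minus MN1, MN1 minus Gr1Mac and MN1VP16 minus Gr1Mac from left to right. The number of measured genes is in brackets after each list. The red cell surface list has the largest share called higher in MN1 minus Gr1Mac (15 of 24), and no aquaporin is called in any panel.

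The counts of calls in these lists also moved with the blocks. With the control feature split as a block, the count higher in MN1 than in Gr1Mac cells was 1 for carbonic anhydrases, 0 for the membrane skeleton, 6 for the surface genes, 1 for iron genes and 6 for regulators and globins. The count lower was 1 for the membrane skeleton, 0 for the surface genes, 1 for iron genes and 1 for regulators and globins. With the sex pattern as a block, the counts higher were 2 for carbonic anhydrases, 2 for the membrane skeleton, 12 for the surface genes, 2 for iron genes and 10 for regulators and globins. In MN1VP16 against Gr1Mac cells, either block left 1 carbonic anhydrase and 1 regulator higher and neither Rhd nor Tfr2 called, and the 3 surface genes were 1 with the control feature split. In MN1VP16 against MN1 cells, the control feature split left 2 surface genes, 2 regulators, 1 iron gene and 0 skeleton genes lower and Rhd not called, and with the sex pattern as a block 0 genes of the whole table were called.

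Markers of other cells differed between the groups as well. The shares of all genes called higher were 17.3% in MN1 minus Gr1Mac and 3.66% in MN1VP16 minus Gr1Mac. In MN1VP16 minus MN1, 2.70% of all genes were called lower. All 8 stem and progenitor markers were higher in MN1 than in Gr1Mac cells, among them Hoxa9 (at least 105-fold, adjusted p = 0.00117) and Gata2 (at least 66.3-fold, adjusted p = 0.00117). In MN1VP16 against Gr1Mac cells 5 of 8 were higher, among them Hoxa9 (at least 30.7-fold, adjusted p = 0.0125) and Cd34 (at least 21.3-fold, adjusted p = 0.0129). Kit alone was lower in MN1VP16 than in MN1 cells (-1.43, adjusted p = 0.0408). The summed linear level of the 8 was 10912 and 13208 on the MN1VP16 arrays, 23991 and 25654 on the MN1 arrays, and 1664 and 1923 on the Gr1Mac arrays. Of 7 mast cell and basophil markers, 4 were higher in MN1 than in Gr1Mac cells, among them Cpa3 (at least 152-fold, adjusted p = 0.00098) and Ms4a2 (7.10, adjusted p = 0.00215). These were also the 2 higher in MN1VP16 than in Gr1Mac cells (Cpa3 at least 95.4-fold, adjusted p = 0.00769, and Ms4a2 4.31, adjusted p = 0.0334). Mast cell and basophil markers summed to 10773 and 7098 on the MN1VP16 arrays, 19884 and 27608 on the MN1 arrays, and 384 and 276 on the Gr1Mac arrays. Both summed levels thus ran in the same order of groups as the 8 genes. Single markers did not all do so, since Meis1 and Fcer1a were highest on MN1VP16 array 1. None of the 7 mast cell and basophil markers was called lower in MN1VP16 than in MN1 cells. In that comparison 3 of them had an unadjusted limma p under 0.05, and the median log2 difference was -0.67. The part of these cell types in the differences of the 8 genes was not tested. The 5 stem and progenitor markers were 3 without either MN1 array and 1 without Gr1Mac array 2. The call of Kit was lost without any MN1 or MN1VP16 array. Without MN1VP16 array 1, 3 other genes of the list were called lower, and without either Gr1Mac array Kit and 1 other were. The 2 mast cell markers in MN1VP16 were 1 without either MN1 or either Gr1Mac array.

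Markers of mature and other lineages were read too. Of all genes, 17.3% were called higher and 12.0% lower in MN1 than in Gr1Mac cells. The shares called higher in MN1VP16 cells were 3.66% against Gr1Mac cells and 1.15% against MN1 cells. Megakaryocyte markers, 3 of 7 higher in MN1 than in Gr1Mac cells and led by Gp5 (at least 6.87-fold, adjusted p = 0.0393) and Itga2b (3.09, adjusted p = 0.0133), summed to 2524 and 674 on the MN1VP16 arrays, 2089 and 1919 on the MN1 arrays, and 534 and 504 on the Gr1Mac arrays. Of 10 monocyte and macrophage markers, 5 were lower in MN1 than in Gr1Mac cells, led by Klf4 (at least 22.4-fold lower, adjusted p = 0.00117) and Csf1r (-3.07, adjusted p = 0.00168). In MN1VP16 against MN1 cells 4 were higher, led by Klf4 (at least 27.9-fold, adjusted p = 0.00644) and Csf1r (2.78, adjusted p = 0.0175). The 10 summed to 21864 and 17380 on the MN1VP16 arrays, 3968 and 2875 on the MN1 arrays, and 21445 and 13200 on the Gr1Mac arrays. Of the 10 neutrophil markers 5 were lower in MN1 than in Gr1Mac cells, led by Cd177 (-2.89, adjusted p = 0.00555) and Mmp9 (-2.75, adjusted p = 0.00711). They summed to 196571 and 197244 on the MN1VP16 arrays, 162881 and 103915 on the MN1 arrays, and 240918 and 238009 on the Gr1Mac arrays. Among 7 B cell markers, Ms4a1 was lower in MN1 than in Gr1Mac cells (-1.07, adjusted p = 0.0455), Vpreb1 higher in MN1VP16 than in Gr1Mac cells (at least 4.54-fold, adjusted p = 0.0262) and Cd79a higher in MN1VP16 than in MN1 cells (at least 1.67-fold, adjusted p = 0.034). B cell markers summed to 860 and 1049 on the MN1VP16 arrays, 390 and 337 on the MN1 arrays, and 505 and 284 on the Gr1Mac arrays. The part of these cells in the differences of the 8 genes was not tested either. The megakaryocyte count was 1 without MN1 array 1, 0 without MN1 array 2 or either Gr1Mac array, and 0 with either block. Without MN1VP16 array 2, 3 megakaryocyte markers were called higher in MN1VP16 than in Gr1Mac cells. The monocyte count of 5 was 3 without MN1 array 2 or Gr1Mac array 1, and that of 4 was 0 without MN1 array 2. The neutrophil count was 2 without MN1 array 2 or either Gr1Mac array, and 0 with the control feature split as a block. Of the B cell calls, that of Ms4a1 was lost without any MN1 or Gr1Mac array, that of Vpreb1 without MN1VP16 array 2 or either Gr1Mac array, and that of Cd79a without any array but MN1VP16 array 1. The B cell count was 2 without MN1VP16 array 1 in each comparison, and 2 in MN1 against Gr1Mac cells without MN1VP16 array 2.

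Cells that use one of the 8 genes for other purposes were also read. Of all genes, 17.3% were called higher and 12.0% lower in MN1 than in Gr1Mac cells. In MN1VP16 cells 3.66% were called higher than in Gr1Mac cells and 2.70% lower than in MN1 cells. Osteoclasts use Car2, and 6 of 8 osteoclast markers were under the guide level on all arrays. The other 2 were called in MN1 against Gr1Mac cells, Acp5 higher (0.87, adjusted p = 0.0391) and Itgb3 lower (-2.16, adjusted p = 0.0253). The call of Acp5 was lost without either MN1 array or Gr1Mac array 2, and that of Itgb3 without MN1 array 2 or either Gr1Mac array. Osteoclast markers summed to 978 and 617 on the MN1VP16 arrays, 553 and 446 on the MN1 arrays, and 1398 and 981 on the Gr1Mac arrays. Endothelium uses Aqp1, and 4 of 8 endothelial markers were under the guide level on all arrays. Plvap was at least 6.57-fold higher in MN1 than in Gr1Mac cells (adjusted p = 0.00107) and lower in MN1VP16 than in MN1 cells (-2.62, adjusted p = 0.00991), a call lost without MN1 array 2. The defining markers Cdh5 and Emcn, singled out after their values were seen, read at most 4.67 and 3.86, whereas Flt1 read up to 7.31, Pecam1 up to 6.46 and Kdr up to 5.89. Endothelial markers summed to 403 and 337 on the MN1VP16 arrays, 608 and 626 on the MN1 arrays, and 225 and 297 on the Gr1Mac arrays. Dividing cells use Tfrc, and 2 of 7 proliferation markers, Mcm2 (1.86, adjusted p = 0.0034) and Pcna (0.86, adjusted p = 0.0447), were higher in MN1 than in Gr1Mac cells, a count of 1 without either MN1 array or Gr1Mac array 2. Mcm2 was also higher in MN1VP16 than in Gr1Mac cells (1.38, adjusted p = 0.0331), a call lost without any array but MN1VP16 array 1. Mki67, singled out after its values were seen, read 11.99 and 12.32 on the MN1VP16 arrays, 12.55 and 12.42 on the MN1 arrays, and 12.37 and 12.24 on the Gr1Mac arrays. The part of these cells in the differences of the 8 genes was not tested.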

How the data were processed

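Expression had been measured on 6 Affymetrix arrays, 2 for each of MN1VP16, MN1 and Gr1Mac. The authors deposited log2 values per probe set, made with RMA per the submitters' processing notes, and no version or genome build is given in the sources used here. Of 45101 lines, 64 were control features and were kept out of the fit. GEO's platform annotation named 1 gene for 34945 probe sets, several for 932 and none for 9160, and the last 2 kinds were left out. A gene was represented by its brightest probe set (mean of 6 arrays), which gave 18193 genes. Symbols were checked against RefSeq (34741 matched, 0 changed).

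Group means were compared with limma 3.58.1 in R 4.3.3 on all 6 arrays, with 3 residual degrees of freedom and 3.03 from the prior, and the fit was tested on simulated data. The p-values were adjusted over all genes of a contrast. Array medians lay between 5.36 and 5.43 log2 units. The 8 genes, the 17 gene lists (197 genes measured, 20 without a probe set of their own) and the rules were chosen with earlier results of these data known. The text names all 8 genes with their probe sets, the 2 called genes of each list with the largest difference per contrast (all called genes where a list has few), the 3 genes most alike to each of the 8, and Xist, Kdm5d, Eif2s3y and Uty as guides. Alternatives changed the probe set that stands for a gene, the fit over probe sets, the probe sets marked as less specific, the filter on dim genes, the variance prior, the array scaling, the arrays in the fit and the blocks, and left out each array.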

Additional observations from a re-analysis of the deposited data

How the results depend on the processing

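Of 384 refits of the 24 differences of the 8 genes, 0 reversed, 308 stayed on the same side of the threshold, 68 lost their call and 8 gained one. Nearly all losses were in comparisons of MN1VP16: 4 were in MN1 minus Gr1Mac (all of Slc4a1), 30 in MN1VP16 minus Gr1Mac and 34 in MN1VP16 minus MN1. Of 1125 refits of the 71 calls among named list genes, 263 lost the call and 0 reversed. In MN1 minus Gr1Mac the count of 8 called genes was 7 or 8 in every alternative. In MN1VP16 minus Gr1Mac the count of 6 was 4 with only the arrays of the 2 groups, 4 with the control feature split as a block and 2 with the sex pattern as a block, and between 0 and 5 with 1 array left out. In MN1VP16 minus MN1 the count of 5 was 3 with each array recentred on its median, 2 with only the arrays of the 2 groups, 1 with the control feature split as a block and 0 with the sex pattern as a block, and between 0 and 6 with 1 array left out. It was 7 without the dimmest 40% of genes and 7 with an intensity trend in the variance prior, where Car2 and Cldn13 were also called. Without the arrays of the third group, and with blocks, fewer degrees of freedom remain. In fits that leave a group with 1 array, that array is assumed to vary like the other groups.

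The titles give the groups the same replicate numbers, but nothing says that a number marks a shared mouse or day. The deviations of same-numbered arrays correlated at -0.05 for MN1 and Gr1Mac, 0.08 for MN1VP16 and Gr1Mac, and -0.05 for MN1VP16 and MN1. With the replicate number as a block, the count was 8 in MN1 minus Gr1Mac, 4 in MN1VP16 minus Gr1Mac and 5 in MN1VP16 minus MN1. The last 5 are not the same genes as without the block: Car1 was no longer called (adjusted p = 0.0683) and Car2 was (adjusted p = 0.0453).

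Over all genes, 5334 were called in MN1 minus Gr1Mac, 1050 in MN1VP16 minus Gr1Mac and 701 in MN1VP16 minus MN1. The fit over probe sets called 9277, 1900 and 1138 probe sets, and the control feature split as a block 1486, 441 and 203 genes. With the sex pattern as a block, 0 genes were called in MN1VP16 minus MN1. With only the arrays of the 2 groups, 347 were called in MN1VP16 minus Gr1Mac and 454 in MN1VP16 minus MN1. With 1 array left out the counts ran from 2418 to 5129, from 49 to 1243 and from 26 to 498. Recentring moved the arrays by at most 0.07 log2 units. Scanner intensities and detection calls were not used here, so signal over background is not known for a single probe set.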
